A study of Bos taurus with 138 samples.

Results

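The 100 transcripts most enriched in bovine 8-cell embryos over all other stages from the immature oocyte to the blastocyst were followed into polysomes. The 100 members were chosen by their level in whole embryos: for each of the 7076 genes with a median of at least 10 CPM (counts per 1000000 of the library total) in the 3 transcriptomes of 8-cell embryos, this median plus 1 was divided by the highest mean plus 1 among the other 5 stages, and the 100 genes with the largest ratio were kept. The deposited table holds 16706 genes in all. The members are therefore 8-cell-enriched by construction, and no test was run on the libraries that selected them.

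The study covered germinal vesicle (GV) and metaphase II (MII) oocytes and 2-cell, 8-cell, morula and blastocyst embryos of Bos taurus. All were produced in vitro from ovaries of slaughtered cattle, with semen of 1 Holstein bull for fertilization, and they carried no genetic change. All stages were exposed to cycloheximide, which holds ribosomes on mRNA, and freed of the zona pellucida with protease before pooling and freezing. Whole oocytes or embryos were sequenced in 3 replicates per stage (A to C), and lysates of larger pools were separated on 2 sucrose gradients per stage (A and B), each cut into 10 fractions from top (F1) to bottom (F10). Free RNA stays in F1 and F2, single ribosomes lie in F3 to F5 (the light fractions), and polysomes, which are mRNAs carrying several ribosomes, sediment to F8 to F10 (the heavy fractions). Counts of F8 to F10 were summed within a gradient to give a polysome pool, so each stage had n = 2 polysome pools.

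Totals per library lay between 3269386 and 11812567 counts in the transcriptomes and between 22543737 and 39380638 in the polysome pools. At these depths 3 counts correspond to at most 0.918 CPM in a transcriptome and 0.133 CPM in a polysome pool. Agreement between replicates at the 8-cell stage was closer for the transcriptomes (Pearson's r of log2 levels across 12922 genes of 0.955 to 0.982) than for the polysome pools (0.796). According to the methods, transcriptomes and gradients were drawn from the same batches of embryos, so the gradients are separate libraries but not necessarily separate collections. Because the samples are pools, fewer cells that use a gene and less RNA per cell cannot be told apart.

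In cattle, the main wave of embryonic genome activation occurs around the 8-cell stage, when maternal mRNAs stored in the oocyte are being replaced by newly made ones. Presence of an mRNA in the embryo does not by itself mean that it is translated, and the number of ribosomes on it is read from how far it sediments. Many genes of the list belong to families known from other tissues: matrix proteins of connective tissue, actin-binding proteins of muscle, interferon-induced antiviral proteins and secreted signalling factors.

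The ratio that ranked the members ran from 6.66 to 1285, with a median of 12.6. XCL1, a chemotactic cytokine, ranked first, with 2345, 2300 and 2980 CPM in the 3 transcriptomes of 8-cell embryos and a mean of 0.826 CPM in MII oocytes, its next highest stage. ISG12(B), KLK1 and TMEM45A closed it, with ratios of 6.72, 6.71 and 6.66, and TMEM176B, CRABP1 and MAP1A followed just outside, with 6.63, 6.62 and 6.60.

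The working description of these genes as seen only at the 8-cell stage was not met to the letter. None of the 100 (0) was without counts in all 15 transcriptomes of the other stages. Every other stage had a mean below 1 CPM for 29 members and below 10 CPM for 78, while 22 members reached at least 10 CPM elsewhere, with IFITM1 the highest at 43.9 CPM in MII oocytes. The next highest stage was MII for 54 members, the morula for 28, the blastocyst for 11, the 2-cell embryo for 4 and the GV oocyte for 3. Summed over the list, levels were 439, 877 and 517 CPM in the 3 MII libraries, 96.3 to 314 CPM in the libraries of the other 4 stages, and 39075, 14829 and 15337 CPM in 8-cell libraries A, B and C.

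**Figure D1:**
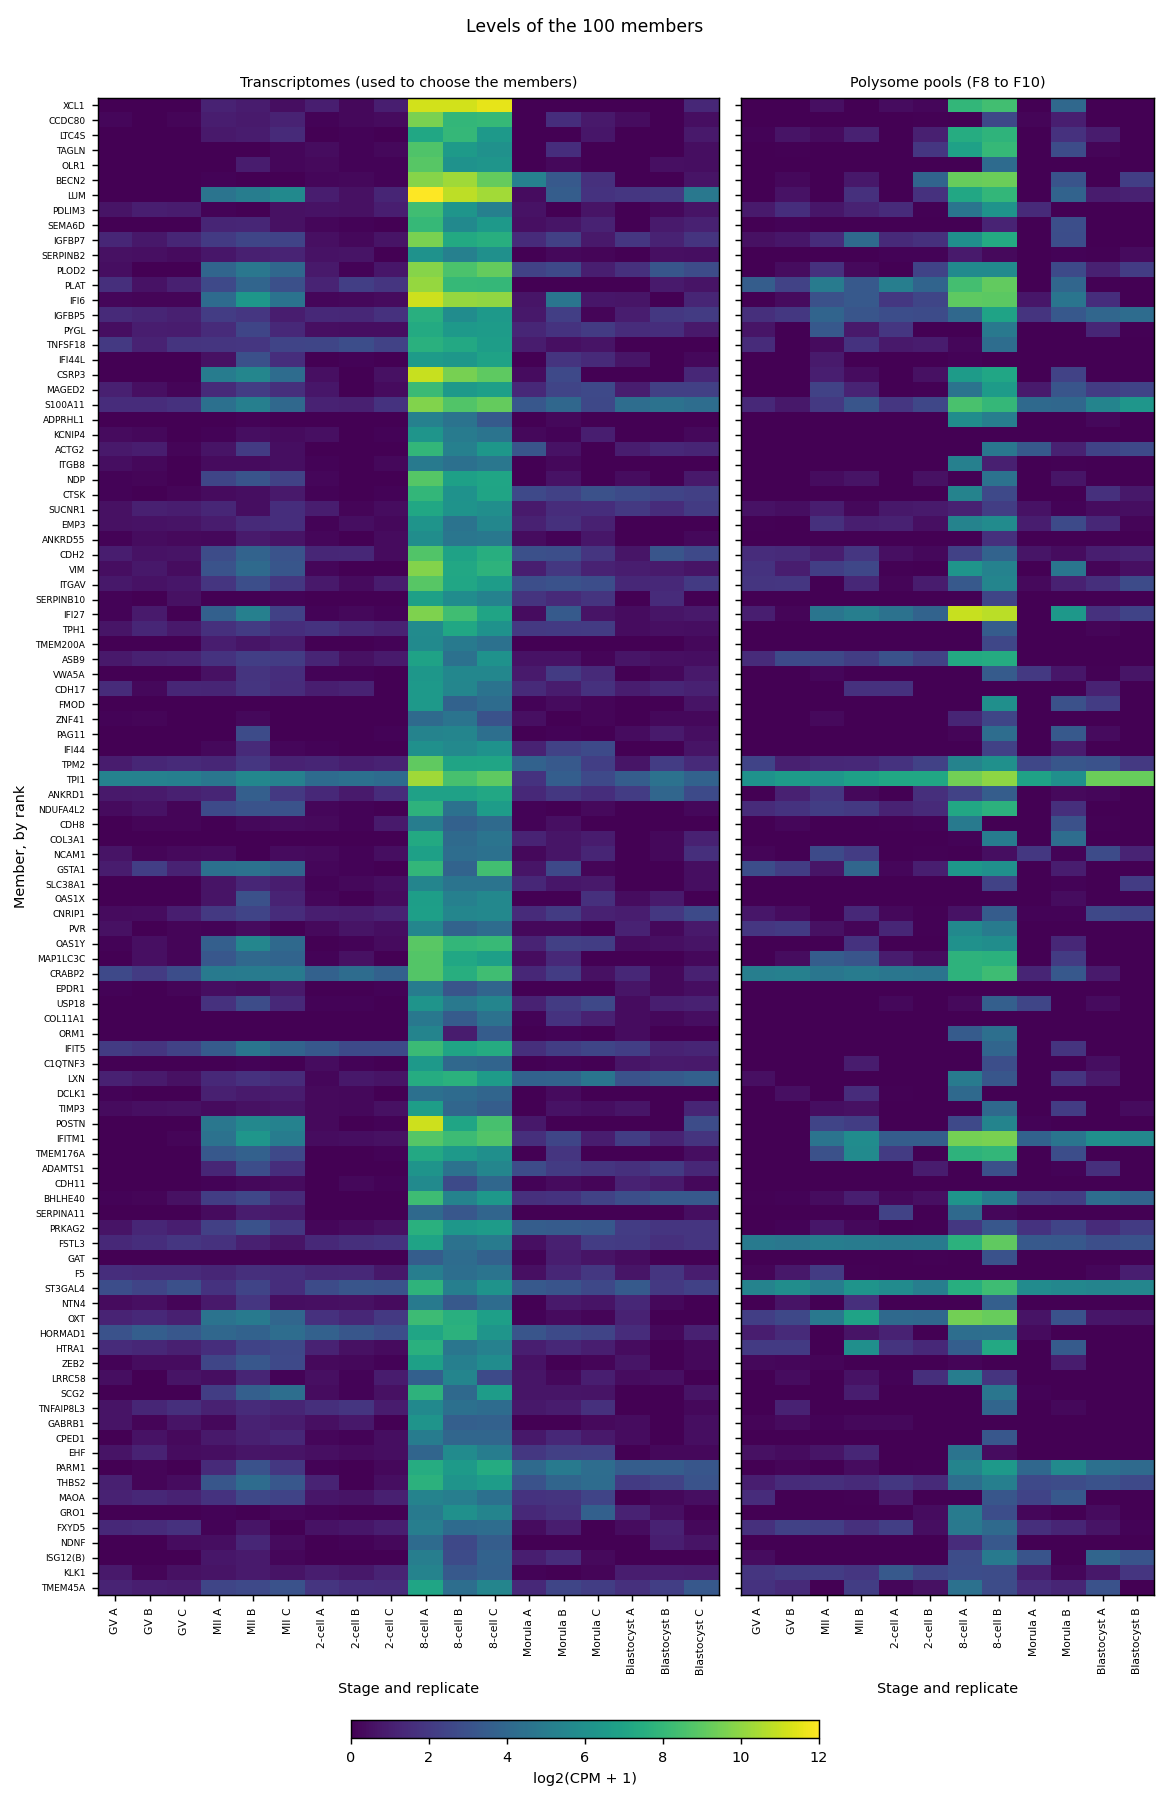
Level of each of the 100 members (rows, by rank) in 18 transcriptomes (left) and 12 polysome pools (right), as log2(CPM + 1). Columns are stages and replicates; the left panel chose the members, and in the right panel 39 of the 100 members had at least 10 CPM in both 8-cell pools.

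8-cell library A stood apart from B and C for these genes. Its level over the mean of B and C had a median of 2.34 across the members, against 0.964 across the 7076 genes, and reached 2 or more for 65 members against 10.5% of the 7076. A was the highest of the 3 libraries for 84 members. The excess was uneven across functions: the median ratio of A was 4.15 for actin, muscle and intermediate filament proteins and 3.72 for matrix proteins, but 1.61 for serpins, proteases and plasma proteins. The 10 members with less in A than in the mean of B and C included XCL1 (0.888), LTC4S (0.829), IFI44L (0.962) and HORMAD1 (0.943).

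**Figure D2:**
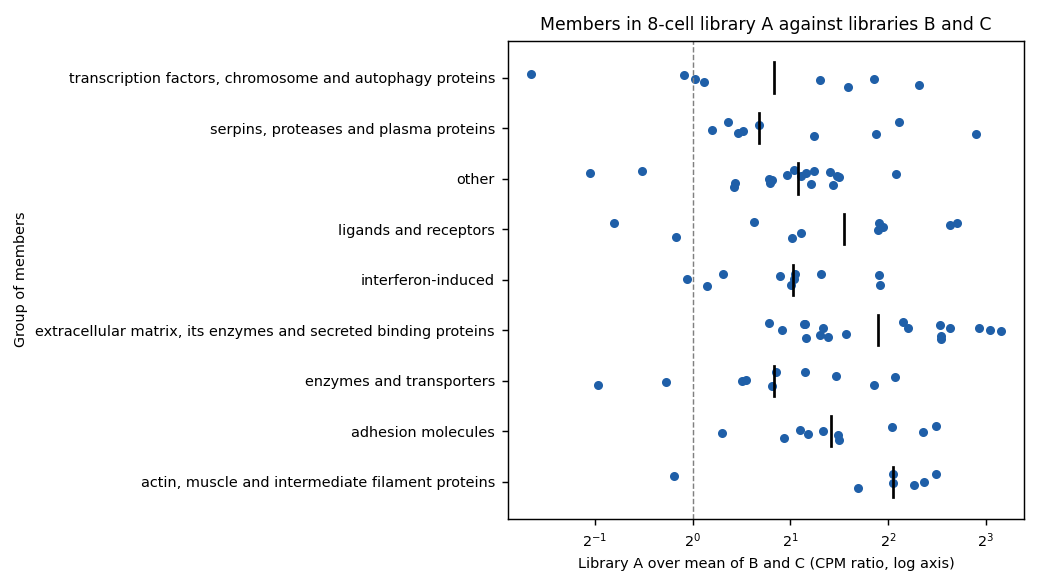
Level in 8-cell transcriptome A over the mean of transcriptomes B and C (x axis, CPM ratio on a log axis) for each of the 100 members (points), in 9 groups of known function (rows; black bar, median). Most points lie right of 1, by a median of 4.15-fold in the actin and muscle group, while 10 members lie left of it.

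Lists of genes known from other cell types were read in the same 3 libraries. A list of 79 matrix and mesenchymal genes, 15 of them members, summed to 26116, 5255 and 5917 CPM in A, B and C, and its other 64 genes to 9734, 1981 and 2408 CPM. Among defining mesenchymal markers outside the list, COL1A2 had 212, 15.1 and 24.9 CPM and DCN 263, 39.9 and 61.9. COL1A1 had 33.7, 7.09 and 10.6 CPM and THY1 14.2, 1.92 and 2.00, whereas PDGFRB had at most 1.25. PDGFRA, which morulae and blastocysts also expressed, had 204, 105 and 154 CPM. Other stages held some of these markers too: COL1A2 had a mean of 24.97 CPM in blastocyst transcriptomes. In morula transcriptomes the means were 25.23 CPM for DCN and 3.479 CPM for THY1, but only 0.9151 CPM for COL1A1, its highest elsewhere. The 37 cumulus and granulosa genes summed to 3253, 788 and 1073 CPM, with CYP19A1 and AMH below 1.5 CPM in all 3. The granulosa marker FSHR had 9.0, 2.21 and 2.21 CPM, highest in A, against a mean of at most 0.149 CPM in GV, MII, 2-cell and morula transcriptomes and 2.25 CPM in blastocysts. PTPRC (leukocytes), PECAM1 (endothelium) and HBB (red cells) stayed below 0.7 CPM, and PRM1 (sperm) was at 0. These lists moved with library A, and their part in the levels of the members was not tested. Ranking without library A kept 92 of the 100 members.

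Members were then read in the gradients, which the ranking did not use. Their summed level in the 8-cell polysome pools was 9231 CPM in gradient A and 11050 CPM in gradient B, and in the polysome pools of the other 5 stages it lay between 237 CPM (GV gradient A) and 923 CPM (Blastocyst gradient A), which is 2.34% to 9.10% of the 8-cell mean. Within the 8-cell gradients A and B the sum was 2124 and 3101 CPM in F1 and F2, 2201 and 2643 CPM in F3 to F5 and 5022 and 8865 CPM in F6 and F7. Among these pools the sum was thus highest in the heavy fractions of both gradients. By single fraction, gradient B had 11470 CPM in F7, 11590 in F8 and 10070 in F10. IFI27 alone held 2056 and 1749 CPM of the heavy sums.

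Entry into polysomes was uneven. At least 10 CPM in both polysome pools was reached by 39 members, against 62.9% of the 7076 genes. At least 100 CPM was reached by 19 members, with the share over all genes not given here. At the other end, 10 members had no more than 3 counts in either pool, against 2.01% of the 7076 genes: IFI44L, OAS1X, ZEB2, CDH11, CDH17, COL11A1, KCNIP4, F5, EPDR1 and GABRB1. Of these, KCNIP4, F5 and GABRB1 were at 0 in every 8-cell fraction, and IFI44L, OAS1X, CDH17 and ZEB2 had at most 0.344 CPM in any. For transcripts missing from the whole gradient, the polysome value says nothing about entry into polysomes. A further 29 members were above 3 counts in 1 pool only, 27 of them in gradient B, where 11.1% of the 7076 genes were above it in B alone. The remaining 61 were above 3 counts in both.

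Both 8-cell polysome pools lay above all 10 polysome pools of the other stages for 48 of the 100 members, against 10.5% of the 7076 genes. In the edgeR quasi-likelihood test across stages, 84 members passed the filter on low counts. Since a gene could pass through its 8-cell pools alone, the 84 are not the whole list. Of these, 4 were higher at the 8-cell stage than at each of the other 5 stages at an adjusted p below 0.05, against 0.202% of the 14339 genes tested. They were FSTL3, ASB9, IFITM1 and NDUFA4L2. The count depends on the test and the libraries. With the share over all genes not given here, it was 16 with the likelihood ratio test and 16 with DESeq2. Leaving out 1 gradient moved it to 2 (GV A, MII A, MII B, 2-cell A or 2-cell B) or 11 (morula B). Taken stage by stage, the 8-cell level was higher for 30 members against GV (background 8.83%), 16 against MII (8.1%), 26 against 2-cell embryos (9.47%), 10 against morulae (3.24%) and 19 against blastocysts (6.86%). No member (0) was lower in any of these 5 comparisons by edgeR, and at an unadjusted p below 0.05 at most 1 member was. Of the 14339 genes, between 609 (against morulae) and 1121 (against MII) were lower. Because the ranking chose members with little mRNA at the other stages, it made higher calls likely and lower ones unlikely.

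FSTL3, a secreted binder of activin and related ligands, had 208 and 545 CPM in the 8-cell polysome pools A and B. In every other pool it had between 6.39 and 33.4 CPM, so the groups did not overlap. The smallest of its 5 differences, against MII, was 3.28 ± 0.55 (SE) on the log2 scale, with an adjusted p of 0.00474 by the edgeR quasi-likelihood test. ASB9, a substrate adaptor of ubiquitin ligases, had 157 and 164 CPM at the 8-cell stage and at most 7.04 CPM elsewhere. Its smallest log2 difference, against 2-cell embryos, was 4.92 ± 0.93 (SE, adjusted p = 0.0101, edgeR). It was listed at 0 in morula and blastocyst pools, where the 8-cell level was at least 1499-fold above a floor of 3 counts per library. That floor covers counting error only and not loss of a transcript from a library.

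IFITM1, an interferon-induced membrane protein that restricts virus entry, had 718 and 774 CPM. Blastocysts held the highest other level, 62.8 and 46.9 CPM, and the log2 difference against them was 3.19 ± 0.55 (SE; adjusted p = 0.00613, edgeR). NDUFA4L2, a mitochondrial protein known from hypoxic cells, had 148 and 208 CPM against at most 3.46 CPM elsewhere, and its smallest log2 difference, against MII, was 5.51 ± 1.56 (SE; adjusted p = 0.0424, edgeR). In both gradients the 4 transcripts lay above all other pools. Over 21 other settings the call was lost in 1 for FSTL3, 2 for IFITM1, 6 for ASB9 and 10 for NDUFA4L2 (adjusted p up to 0.315, edgeR).

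**Figure D3:**
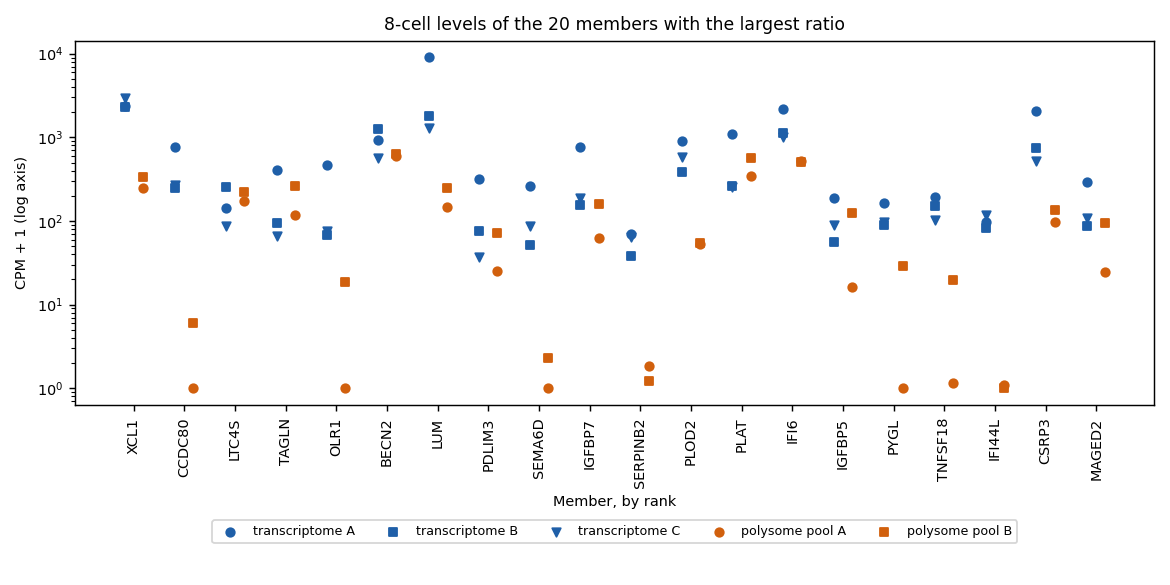
8-cell levels of the 20 members with the largest ratio (x axis) as CPM + 1 on a log axis, in transcriptomes A to C (blue) and polysome pools A and B (orange); each point is 1 library or pool. Both polysome points reach the range of the transcriptome points for LTC4S, TAGLN, BECN2 and PLAT. Only the point of pool B does so for PDLIM3, IGFBP7, IGFBP5 and MAGED2. Polysome points lie far below the transcriptome points for CCDC80, OLR1, SEMA6D, SERPINB2 and IFI44L.

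Heavy fractions were compared with light fractions inside the 8-cell gradients. Across the whole list, the heavy level was above the light level in both gradients for 53 members (background 48.4% of the 7076 genes) and below it in both for 6 (20.4%). Against free RNA the corresponding counts were 51 (37.5%) and 1 (24%). The test covered 89 members. Of these, 7 were higher in the heavy fractions, against 4.55% of 14873 genes tested, and 0 were lower, against 4.8%. Neither was any member lower at an unadjusted p below 0.05, by the likelihood ratio test or by DESeq2, while limma on mean CPM placed 2 lower. The 89 are not the whole list, since a gene could pass the filter on low counts through its heavy pools alone. Over the expressed genes of the table the median heavy minus light difference was 0.57 with TMM factors and 0.90 with plain library totals.

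The 7 members were TPI1, IFITM1, TPM2, PLAT, BHLHE40, ITGAV and CTSK. TPI1, a glycolytic enzyme, rose from 134 and 119 CPM in the light fractions of gradients A and B to 693 and 996 CPM in the heavy fractions, a log2 difference of 2.40 ± 0.51 (SE; adjusted p = 0.0119, edgeR). IFITM1 rose from 38.3 and 147 CPM to 718 and 774 CPM (2.72 ± 0.75, adjusted p = 0.0328). TPM2, a tropomyosin, rose from 3.18 and 2.42 CPM to 40.3 and 63.3 CPM (3.87 ± 1.07, adjusted p = 0.0328). In all 3, both heavy values were above both light values.

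PLAT, the tissue plasminogen activator, had 11.4 and 8.41 CPM in the light fractions and 342 and 560 CPM in the heavy ones (5.17 ± 1.56, adjusted p = 0.0488), and its level was highest in F10 of both gradients. BHLHE40, a transcriptional repressor, was at 0 in both light pools and at 74.4 and 32.0 CPM in the heavy ones (adjusted p = 0.00513). The heavy level was 563-fold above a floor of 3 counts per library, which covers counting error only. Within the heavy fractions BHLHE40 was also at 0 in F10 of gradient A and F8 of gradient B. ITGAV, the integrin alpha-V subunit, and CTSK, a collagen-cleaving protease, were also at 0 in both light pools. ITGAV had 9.32 and 42.5 CPM in the heavy fractions (adjusted p = 0.0188) and CTSK 40.1 and 5.22 CPM (adjusted p = 0.0411), so both differed between gradients. Over 20 other settings the call was lost in 11 for CTSK, 10 each for TPM2 and PLAT, 4 for IFITM1, 2 each for TPI1 and ITGAV and 1 for BHLHE40, and without 8-cell gradient A the count of 7 fell to 1.

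Against free RNA, 3 of 89 members were higher in the heavy fractions (background 2.31% of 14660 genes) and 0 lower (1.17%), and none was lower at an unadjusted p below 0.05, by the likelihood ratio test or by DESeq2. The 3 were PLAT (0 and 1.13 CPM free, adjusted p = 0.0447), MAP1LC3C (0 in both free pools, 215 and 205 CPM heavy, adjusted p = 0.0211) and FXYD5 (0 in both, 28.3 and 16.7 CPM heavy, adjusted p = 0.0160), all by edgeR. With the gradient as a replicate block, since both pools of a letter come from the same tube, 1 of the 3 calls was left. Over 18 other settings the call was lost in 9 for PLAT and in 2 each for MAP1LC3C and FXYD5.

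**Figure D4:**
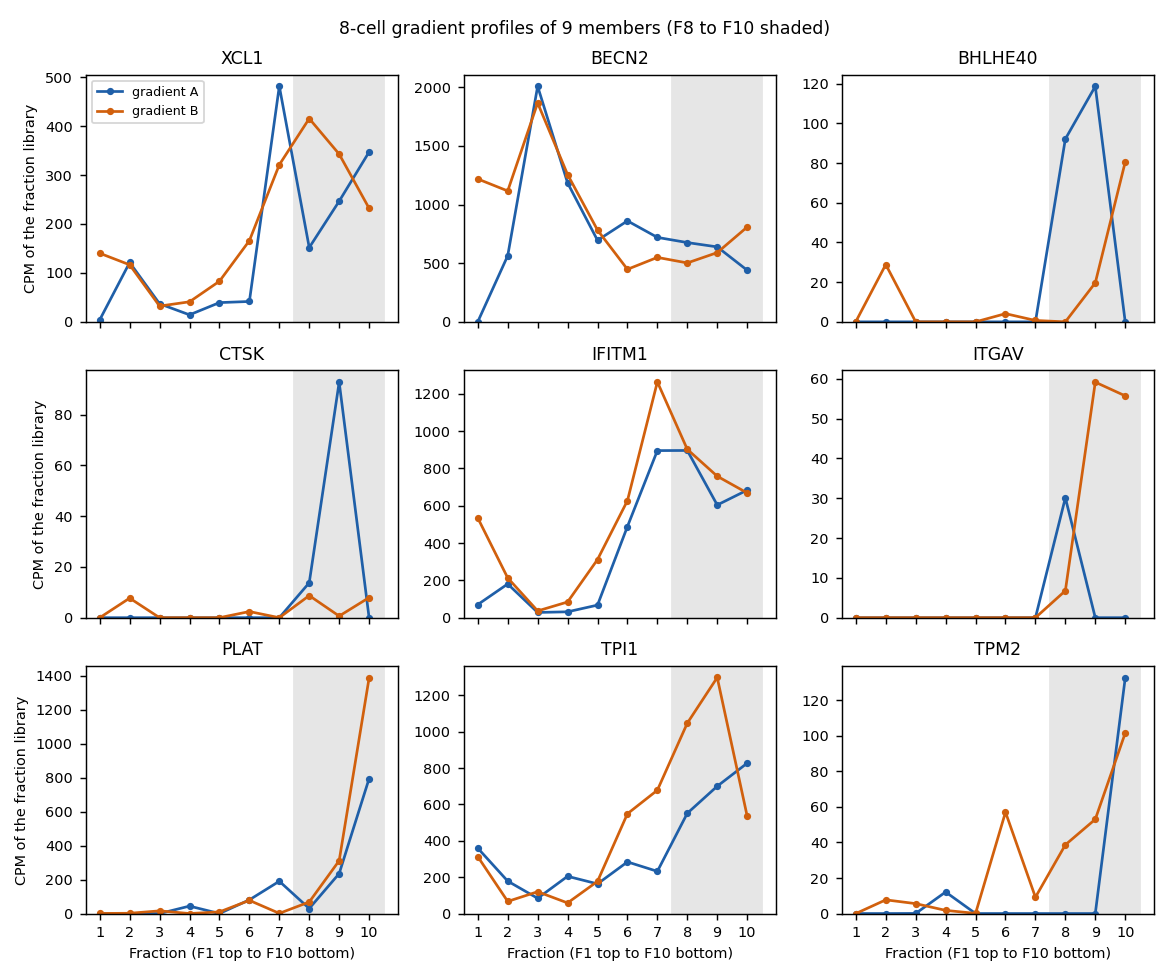
CPM of 9 members (panels) in each fraction library from F1 (top of the gradient) to F10 (bottom) for 8-cell gradients A (blue) and B (orange), with the polysome fractions shaded. The 7 members that differed between heavy and light fractions are shown with XCL1 and BECN2, which did not pass the test. XCL1 was also higher in the heavy fractions (log2 difference 2.47, adjusted p = 0.432, edgeR). BECN2 peaks in F3, and PLAT rises to F10.

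Taken fraction by fraction, 79 members had counts in gradient A and 95 in gradient B. The fraction with the highest CPM lay in F8 to F10 for 56 members in A and 58 in B. For the 7076 genes the share peaking there was 45.0% in A and 44.7% in B. F1 or F2 held the peak of 7 members in A and 10 in B, against 24.3% and 26.3% of the 7076 genes.

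The 8-cell polysome pools were set beside the 8-cell transcriptomes as a description, because the latter had chosen the members. Both pools lay below all 3 transcriptomes for 58 members (background 52.4%) and above all 3 for 6 (22.8%), and the groups overlapped for 36. The 6 above were FSTL3, IFI27, OXT, TMEM176A, ASB9 and IFITM1. A level below the transcriptomes need not be particular to polysomes. For POSTN, LUM and XCL1 the polysome pool was above the free, light and F6 to F7 pools of the same gradient. The median log2 difference between mean polysome and mean transcriptome level was -2.24 for the members and -0.96 for the 7076 genes. With each polysome pool taken alone, the median of the members was -3.435 in gradient A and -2.398 in gradient B. The members were selected on the transcriptome side of this difference. Without library A the median from the mean polysome level was -1.74. Members with a 2-fold or greater excess in A (65) and the rest (35) had medians of -2.29 and -2.05. Against transcriptomes B and C alone these medians were -1.56 and -2.01, so their order turned with library A. Both levels were related across members (Spearman's rho = 0.603, n = 100 genes that share the same 5 libraries, as a description).

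**Figure D5:**
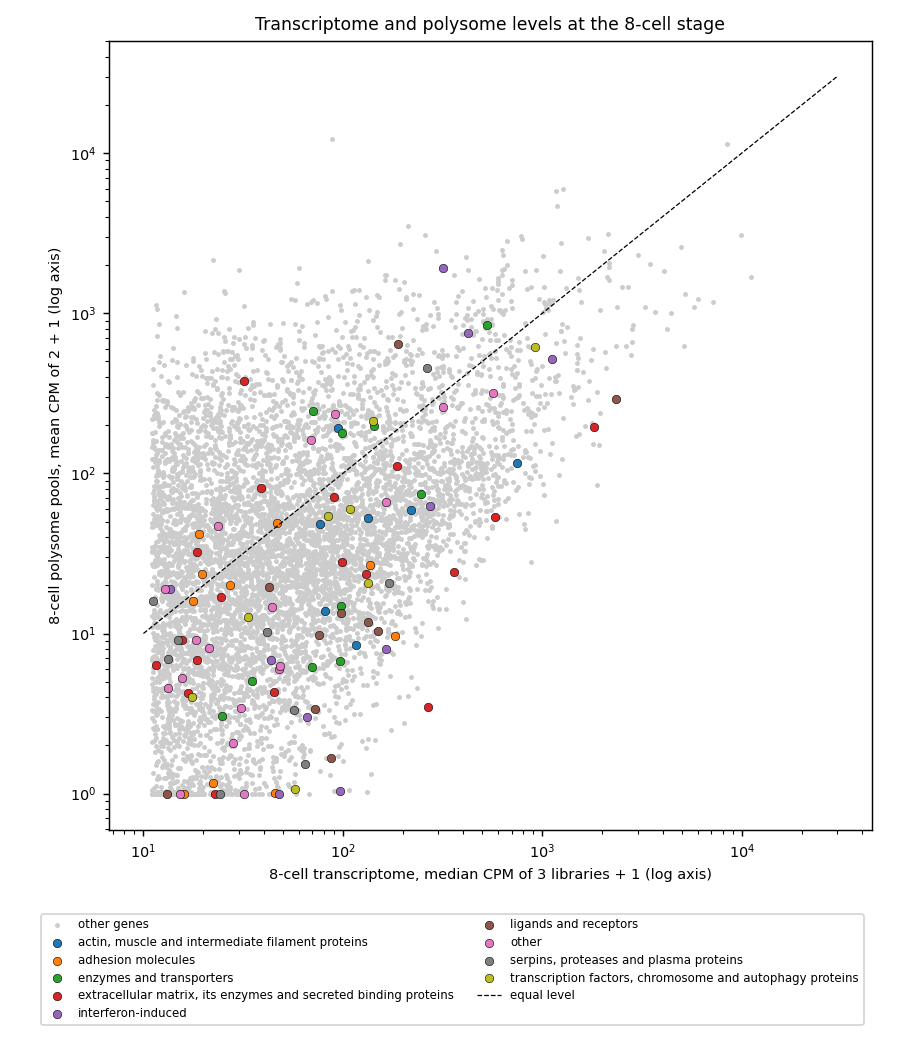
Median transcriptome level (x axis) against mean polysome level (y axis) at the 8-cell stage, both as CPM + 1 on log axes, for 100 members (coloured by group) and the other expressed genes (grey); the dashed line marks equal levels. Of the 100 members, 15 have a mean polysome level above the mean transcriptome level, and 10 sit at the bottom with no more than 3 counts in either pool.

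Signalling genes made up 10 members, of which 2 had at least 10 CPM in both polysome pools (62.9% of the 7076 genes did). XCL1 had 248 and 331 CPM in the 8-cell polysome pools, 31.6 and 52.6 CPM in the light fractions and 236 and 244 CPM in F6 and F7. At other stages its polysome level was at most 0.405 CPM, except in morula gradient B with 15.7 CPM. Both polysome pools thus lay below all 3 transcriptomes, as did every 8-cell fraction, with at most 482 CPM of XCL1. OXT, which encodes the hormone oxytocin and its carrier, went the other way, with 691 and 594 CPM in polysomes against 300, 188 and 110 CPM in the transcriptomes. It was also present in MII polysomes, at 27.1 and 123 CPM.

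The receptor and guidance genes of this group had little signal in polysomes. OLR1, a scavenger receptor for oxidized lipoprotein, had 465, 67.3 and 75.1 CPM in the transcriptomes but 0 and 17.6 CPM in the polysome pools. SEMA6D, an axon guidance protein, had 258, 50.9 and 86.4 CPM against 0 and 1.33 CPM, and at most 3.29 CPM in any 8-cell fraction. TNFSF18, a ligand of the TNF family, had 193, 148 and 102 CPM against 0.172 and 18.5 CPM. SUCNR1, the succinate receptor, and GABRB1, a GABA receptor subunit, remained at or below 3.59 CPM in both pools, and NDP and SCG2 were at 0 in gradient A, with 21.6 and 25 CPM in B. GRO1, a chemokine, had 30.7 and 6.23 CPM. OXT and SUCNR1, among others here, were singled out after their values were seen.

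Matrix proteins, their enzymes and secreted binding proteins formed the largest named group, with 18 members. In polysomes, 7 of the 18 had at least 10 CPM in both pools (62.9% of the 7076 genes did). The median log2 difference from the transcriptome was -2.24. LUM, a keratan sulfate proteoglycan that organizes collagen, had 9056, 1808 and 1305 CPM in the transcriptomes and 145 and 244 CPM in polysomes, with 0.029 and 0.693 CPM in the light fractions. Its heavy minus light difference was 8.78 on the log2 scale, with an adjusted p of 0.0768 by edgeR. PLOD2, a lysyl hydroxylase of collagen, had 904, 383 and 578 CPM against 52.4 and 53.1 CPM, a close match between gradients.

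IGFBP7 and IGFBP5, which bind insulin-like growth factors, had 61.0 and 159 CPM and 15.4 and 125 CPM in polysomes. The secreted matrix protein CCDC80 was ranked second, with 763, 248 and 265 CPM in the transcriptomes. Its polysome levels were 0 and 4.99 CPM, and no 8-cell fraction held more than 127 CPM of it. POSTN, a matricellular protein, had 2189, 134 and 358 CPM in the transcriptomes and 5.37 and 41.3 CPM in polysomes. Its light pools had 0 and 0.094 CPM and its free pools 0 and 1.79 CPM. The low level of POSTN thus held for the whole gradient and not for polysomes alone. COL3A1, the type III collagen chain, had 0.0887 and 31.9 CPM in the polysome pools, and 130 CPM in F6 and F7 of gradient A, while COL11A1 was at 0 in both polysome pools. TIMP3 and FMOD were at 0 in the polysome pool of A and had 16.2 and 62.3 CPM in that of B.

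Of the 7 cytoskeletal members, 5 had at least 10 CPM in both polysome pools (62.9% of the 7076 genes did), and for 6 both pools lay above all pools of other stages. Relative to the transcriptome their median log2 difference was -2.82, and both pools lay below all 3 transcriptomes for 5 and above them for 0. TAGLN, an actin-binding protein of smooth muscle, had 410, 93.1 and 65.4 CPM in the transcriptomes and 117 and 263 CPM in polysomes. CSRP3, a LIM protein of striated muscle, had 2053, 747 and 524 CPM against 95.9 and 135 CPM, and PDLIM3, another LIM protein of the actin cytoskeleton, 316, 75.9 and 36.0 CPM against 24 and 70.8. VIM, the mesenchymal intermediate filament, had 881, 147 and 218 CPM against 76.6 and 39.5 CPM. ANKRD1, a muscle ankyrin-repeat protein, had 4.17 and 10.7 CPM in polysomes, and ACTG2, enteric smooth muscle actin, had 0 and 25.8 CPM. ACTG2 shares long stretches with other actins, so its counts are uncertain.

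Adhesion genes numbered 10, and 3 of them had at least 10 CPM in both pools (62.9% of the 7076 genes did). PVR, a nectin-like receptor, EMP3, a small membrane protein, and FXYD5, a regulator of the sodium pump, were those 3, with 50.6 and 30.9 CPM for PVR. CDH2, the neural cadherin, had 427, 122 and 180 CPM in the transcriptomes but 4.04 and 13.2 CPM in polysomes. CDH11 and CDH17 had at most 0.0289 CPM there, and NCAM1 0 and 0.346 CPM. NCAM1 also had the most negative heavy minus light difference of the members tested, -4.64 on the log2 scale, with an adjusted p of 0.301 by edgeR. ITGB8 had 36.8 CPM in the polysome pool of gradient A and 1.07 CPM in that of B, and CDH8 had 29.8 CPM in A and 0 in B.

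Interferon-induced genes numbered 10, and they split by polysome level. IFI27 had 2056 and 1749 CPM in the polysome pools against 832, 317 and 127 CPM in the transcriptomes, and 12 and 103 CPM in the light fractions. IFI6, a mitochondrial survival protein, had 527 and 500 CPM in polysomes, less than its 2188, 1111 and 1017 CPM in whole embryos, and OAS1Y, an antiviral oligoadenylate synthetase, 66.7 and 57.2 CPM. IFI44L had 95.8, 81.4 and 118 CPM in the transcriptomes and 0.0887 and 0 CPM in polysomes, and OAS1X had 104, 36.6 and 47.0 CPM against 0 in both. Both transcripts were close to absent from the whole 8-cell gradients, with at most 0.292 CPM in any fraction. IFI44, IFIT5 and USP18, which removes the ubiquitin-like ISG15, reached 4.01, 14 and 11.5 CPM in gradient B and at most 0.222 CPM in A.

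OAS1X and OAS1Y, and IFI27 and ISG12(B), are close relatives that lie next to each other in the RefSeq annotation of ARS-UCD2.0, so reads could have been split between them. Of the wider list of 46 interferon-stimulated genes, 9 were members. In the list of 46, 5 of the 39 tested were higher in the heavy than in the light fractions and 0 lower by edgeR, where the shares over all genes tested were 4.55% and 4.8%. Across stages, 2 of the 37 tested were higher in 8-cell polysomes than at every other stage (0.202% of all genes tested). The list summed to 7167, 3659 and 4068 CPM in 8-cell transcriptomes A to C and to 5986 and 6082 CPM in the polysome pools. Without its 9 members these sums were 2586, 1362 and 1792 CPM and 2617 and 2972 CPM, while GV polysome pools had 2693 and 2442 CPM, so that the 8-cell and GV pools overlapped.

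Among enzymes and transporters, 5 of 10 had at least 10 CPM in both polysome pools (62.9% of the 7076 genes did). LTC4S, which makes leukotriene C4, had 142, 257 and 86.1 CPM in the transcriptomes and 174 and 220 CPM in polysomes, against at most 2.26 CPM in the pools of other stages. ST3GAL4, a sialyltransferase, had 180.5 and 310 CPM in polysomes and 73.9 CPM or less elsewhere. PYGL, liver glycogen phosphorylase, had 0 and 27.8 CPM, and TPH1, of serotonin synthesis, 0 and 10.3 CPM. GSTA1, which belongs to a family of near-identical glutathione transferases and is uncertain for that reason, had 81.6 and 64.3 CPM.

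TPI1 differed between whole-embryo and gradient libraries outside the 8-cell stage. In whole embryos TPI1 had 1232, 365 and 526 CPM at the 8-cell stage and at most 45.4 CPM in any library of another stage. In the polysome pools it had 693 and 996 CPM at the 8-cell stage, 634 and 590 CPM in blastocysts, 140 and 140 CPM in 2-cell embryos and 61.3 to 121 CPM in GV, MII and morula pools. As CPM the 8-cell pools lay above the blastocyst pools, but with TMM factors the log2 difference was -0.12 ± 0.47 (SE; adjusted p = 0.920, edgeR), so its direction depends on the scaling. Against the other 4 stages TPI1 was higher at the 8-cell stage, by 2.65 to 3.41 on the log2 scale (adjusted p of 0.0142 or less, edgeR). The gap to whole embryos was not particular to polysomes. Blastocyst gradients had 341.5 and 184 CPM in F1 and F2 and 402 and 335 CPM in F3 to F5. GV gradients had 134 and 152 CPM in F1 and F2, above their polysome pools.

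Serpins, proteases and plasma proteins had 2 of 9 members at 10 CPM in both pools, against 62.9% of the 7076 genes. They were PLAT and ORM1, the acute-phase orosomucoid (10.0 and 19.8 CPM). SERPINB2, an inhibitor of plasminogen activators, had 69.4, 37.0 and 63.7 CPM in the transcriptomes and 0.846 and 0.236 CPM in polysomes, in contrast to PLAT, with 1110, 263 and 252 CPM in the transcriptomes. No 8-cell fraction held more than 6.31 CPM of SERPINB2. PAG11, a pregnancy-associated glycoprotein from a large family of similar ruminant genes, had 0.133 and 18.4 CPM and is uncertain. SERPINA11 had 16 and 0.173 CPM in the polysome pools.

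Regulators of transcription, chromosomes and autophagy showed 5 of 8 at 10 CPM in both pools, close to the 62.9% of the 7076 genes. BECN2, a relative of the autophagy protein beclin, had 916, 1240 and 567 CPM in the transcriptomes and 590 and 629 CPM in polysomes. It was nevertheless more abundant in the light fractions, at 1482 and 1290 CPM, with a heavy minus light difference of -1.52 on the log2 scale that did not pass the test (adjusted p = 0.762, edgeR). MAP1LC3C, its neighbour in the genome and a ubiquitin-like protein of autophagosomes, had 215 and 205 CPM in heavy against 18.8 and 34.7 CPM in light fractions. HORMAD1, a protein of meiotic chromosome axes, had 19.2 and 20 CPM in polysomes, and MAGED2 23.6 and 94.2 CPM. ZEB2, a repressor known for driving mesenchymal change, had 112, 34.7 and 56.4 CPM in the transcriptomes and 0.133 and 0 CPM in polysomes. No 8-cell fraction held more than 0.344 CPM of ZEB2.

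The remaining 18 members share no function, and 6 of them had at least 10 CPM in both pools (62.9% of the 7076 genes did). S100A11, a calcium-binding protein, had 381 and 254 CPM in polysomes against at most 77.0 CPM elsewhere. CRABP2, which carries retinoic acid, had 215 and 305 CPM, and TMEM176A 216 and 248 CPM. DCLK1 and TMEM45A were among the 8 members with the largest heavy minus light difference, 10.7 and 11.5 on the log2 scale. Their adjusted p was 0.120 and 0.0528 by edgeR. Both were at 0 in both 8-cell light pools, so the size of these differences depends on the prior count and is no bound. DCLK1 had 16.1 CPM in the heavy pool of A and 0 in that of B. GAT, ZNF41, ADAMTS1, KLK1 and MAOA were among the 8 with the smallest, from -2.13 to -0.59, and none passed the test. S100A11, CRABP2 and TMEM176A were singled out after their values were seen.

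Some members were present in polysomes before or after the 8-cell stage. At least 10 CPM in both pools of another stage was found for 12 members: TPI1 and ST3GAL4 at all 5 stages, IFITM1 at 4, FSTL3 and CRABP2 at GV, MII and 2-cell, and OXT and IFI27 at MII and 2-cell. PLAT met this at 2-cell, S100A11 and PARM1 in morulae and blastocysts, and IGFBP5 and BHLHE40 in blastocysts. Such a level does not mean enrichment in polysomes. In GV gradients CRABP2 had 169 and 132 CPM in F1 and F2 against 34.5 and 37 CPM in polysomes. FSTL3 had 48.7 and 54.7 CPM there against 29.7 and 26.4 CPM. IFI27 in MII gradients went the other way, with 3.07 and 0.95 CPM in F1 and F2 against 24.1 and 33.9 CPM. The 2 morula gradients differed. Of the 19 members above 100 CPM in both 8-cell pools, the level in morula gradient B had a median of 3.2% of the 8-cell level and that in gradient A a median of 0%. IFI27 had 82.4 CPM in B and 0 in A, IFI6 24.6 and 0.642, and LUM 13.3 and 0. Leaving out morula gradient B raised the count of members higher than at every other stage from 4 to 11, and leaving out A raised it to 6.

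Other gene lists held few members. The actin and smooth muscle list (35 genes) held 3, the ligand list (75) and the placental list (21) 1 each, and the lists of genome activation, histone, paired-like homeobox, immediate early, cumulus, oviduct, sperm, blood and endothelial genes 0. For the 35 genome activation and cleavage-stage genes in the table, summed levels were 3897 to 5243 CPM in 8-cell transcriptomes and 4707 to 5424 CPM in morulae and blastocysts, so the 2 ranges overlapped. In heavy against light fractions, 8 of 70 tested matrix and mesenchymal genes were higher and 3 lower, and of 34 genome activation genes 2 were higher and 3 lower (over all genes tested, 4.55% higher and 4.8% lower). Apart from the interferon-stimulated list given above, the remaining lists had 0 to 2 higher. They had 0 to 3 lower, except for the immediate early list with 9 of 45.

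All 100 members matched protein-coding genes of the RefSeq annotation of ARS-UCD2.0, and 8 pairs of members lay within 3 genes of each other. Directly adjacent were BECN2 and MAP1LC3C, SERPINB2 and SERPINB10, IFI44L and IFI44, IFI27 and ISG12(B), CDH8 and CDH11, and OAS1X and OAS1Y. NDP and MAOA had 1 protein-coding gene between them, and CTSK and HORMAD1 had 2. Neighbours could be alike or differ in polysome level: BECN2 and MAP1LC3C were both above 200 CPM in each pool, but IFI27 and ISG12(B) had 1749 to 2056 CPM and 5.81 to 30.3 CPM.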

How the data were processed

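The authors made libraries with a Smart-seq kit and quantified them with Salmon (version not given in the sources used here) against Ensembl gene models. They deposited expected counts for 16706 gene symbols in 1 table of 138 libraries (120 gradient fractions and 18 transcriptomes), not normalized. The methods name ARS-UCD1.2 and the submitters' processing notes UMD3.1; no coordinates were used. Columns were assigned by stage, fraction and replicate letter, with 0 left unmapped, and 78 replicate pairs held 0 identical pairs. Of the values, 11.7% are not whole, and pooled counts were rounded for the count models.

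CPM used the library total. Polysome pools are sums of F8 to F10, light pools F3 to F5, free pools F1 and F2. Tests used edgeR 4.0.16 (R 4.3.3): TMM factors, filterByExpr and glmQLFTest, over 12 polysome pools between stages and 24 pools for heavy against light or free, with Benjamini-Hochberg adjustment over all genes tested at 0.05. All p-values are two-sided and measure the spread between these pools. SE is the log2 difference over the root of F. limma 3.58.1 and DESeq2 1.42.0 served as alternatives. Summaries and figures were made with pandas 2.3.3, numpy 2.4.6, scipy 1.17.1 and matplotlib 3.10.9 under Python 3.11.15. Log levels used a pseudocount of 1. A floor is 3 counts of a library's total and covers counting error only.

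Both pools of a letter come from 1 gradient, so the letter pairs them. The correlation of their deviations from the group means was 0.056 at the 8-cell stage and between -0.005 and 0.146 over stages. Between stages the same check gave -0.039 to 0.046 over 15 pairs of stages, so letters were not taken to pair them.

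In simulated counts with 200 changed genes, an 8-fold change was called higher than all 5 stages for 25.5% of them and higher in heavy than light fractions for 33.5%, and a 64-fold change for 97% and 100%. The changed genes were drawn from well expressed genes, with the same level in all unchanged pools and a spread taken from the trend over genes. These shares do not carry over to members close to 0 in other pools. LTC4S, with a smallest log2 difference of 7.17 between stages, was not called (adjusted p = 0.114, edgeR).

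The members and gene lists were chosen with earlier results of these data known, and function groups were made by hand once the members were known. Genes named in the text are the 20 members with the largest ratio, 3 inside and 3 outside the edge, the 8 largest and 8 smallest heavy minus light differences, and members on a gene list; the remaining members are named within their function group, some after their values were seen. Promoters and proteins were not analysed here.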

Additional observations from a re-analysis of the deposited data

Results flagged for a closer look

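Heavy minus light differences at the 8-cell stage were compared with the mean difference of the other 5 stages as an interaction in the edgeR quasi-likelihood model of 24 pools. It was larger at the 8-cell stage for 2 of 89 members tested, against 2.56% of 14873 genes. For BHLHE40 the gap was 12.4 on the log2 scale (adjusted p = 0.015), and for ITGAV it was 12 (adjusted p = 0.0438). Both transcripts were at 0 in the light fractions of both 8-cell gradients, so the size of these values depends on the prior count and is no bound. At an unadjusted p below 0.05 there were 8 such members.

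Fractions F6 and F7, which lie between single ribosomes and heavy polysomes, entered neither the stage test nor the heavy against light or free tests of the report. Above 3 counts in both gradients of 8-cell embryos there, 34 members were found (36 in gradient A and 61 in gradient B). At the other stages 25 to 46 members were above 3 counts in a gradient.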

How the results depend on the processing

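The 100 members shared 78 to 95 genes with the lists made under other settings. These were TMM factors, means in place of medians, other pseudocounts, minimum levels of 5 or 20 CPM, single libraries of the other stages, and each 8-cell library left out. The fewest (78) were shared without library C, and 61 members were in every list. Without library A as well, the 3 counts of calls below were the same as with it.

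Counts of members higher in 8-cell polysomes than at each other stage (4) moved to 16 with the edgeR likelihood ratio test, 16 with DESeq2, 7 with library totals, 13 with all 10 fractions summed and 40 with limma on mean CPM. With F3 to F5 in place of F8 to F10 the edgeR quasi-likelihood count was 0, and 5 members were at an unadjusted p below 0.05 against all stages. For heavy against light (7) the counts were 24 by likelihood ratio, 19 by DESeq2, 3 with a light pool of F3 to F7 and 43 with limma, and for heavy against free (3) they were 15, 15 and, without a filter, 6. The shares of all genes called alongside these counts are not given here. The counts therefore show how far the calls depend on the setting, and not how members compare with other genes. Library totals changed the split of all genes between heavy and light from 677 higher and 714 lower to 1031 and 498.

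Leaving out 1 gradient gave 2 to 11 members for the stage comparison, 1 to 16 for heavy against light and 1 to 10 for heavy against free. The stage count was 2 without GV A, MII A, MII B, 2-cell A or 2-cell B, and 11 without morula B. Heavy against light gave 1 without 8-cell A, 3 without 8-cell B, 2-cell A or 2-cell B, 4 without GV A, GV B, MII A or MII B, 15 without morula A and 16 without morula B. Heavy against free gave 1 without 8-cell A and 10 without morula A or morula B. The lone gradient is then assumed to vary like the other stages. The cause of these shifts was not tested.

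With the replicate block (gradients paired by letter) the counts were 5, 6 and 1. Of 278 recomputed values for the 14 single-gene calls, 206 stayed past the threshold, 72 did not and 0 changed direction. Depth limits members near 3 counts per pool, and 11 members could not be tested between heavy and light fractions.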
